A study of Homo sapiens with 3 samples.

Results

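The genes described here are the nuclear-encoded subunits of respiratory complexes I, II, III and IV, measured in A549 cells with and without knockdown of DDX24. They were chosen by name: protein-coding genes whose symbol begins with NDUFA, NDUFB, NDUFC, NDUFS or NDUFV and a digit, with UQCR, or with COX followed by a digit from 4 to 8, together with SDHA, SDHB, SDHC and SDHD. The rule matched 69 of the 58735 genes in the count files. Of these, 59 are subunits: 36 of complex I, 4 of complex II, 8 of complex III and 11 of complex IV, with NDUFA4 placed in complex IV, where the protein resides. The other 10 are isoforms of restricted expression, a read-through gene, a gene copy and COX7A2L, a factor that joins complexes into supercomplexes. The rule leaves out the carrier protein NDUFAB1, cytochrome c1 (CYC1), cytochrome c (CYCS) and C15orf48, which are given separately.

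A549 is an established human lung adenocarcinoma cell line, grown here with 10% FBS in F12K. Sequencing covered 3 libraries of RNA: control cells and cells carrying either of 2 shRNAs against DDX24, an RNA helicase (DDX24-sh1 and DDX24-sh2). The shRNAs were delivered by lentivirus from pLKO.1 and the stably infected cells selected with puromycin, and the control cells carried a pLKO.1 vector, described in one place as empty and in another as a control shRNA. Each condition had 1 library, so no condition had a replicate, no test between conditions was run, and each difference below belongs to these libraries. A ratio is the log2 ratio of CPM, the counts brought to a common library size by the TMM method, and its interval is the exact 95% interval from the 2 counts. Intervals cover counting error only, and since no molecular identifiers are described, copies of 1 molecule may have been counted more than once.

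Complexes I and II pass electrons from NADH and succinate to ubiquinone, complex III passes them on to cytochrome c, and complex IV hands them to oxygen. Complexes I, III and IV are built from subunits of both genomes, the catalytic core being partly encoded by mitochondrial DNA, whereas complex II is wholly nuclear-encoded. The accessory subunits hold the cores together, and several subunits of complex IV exist as paired isoforms, one found in most tissues and one restricted to muscle, lung, testis or low oxygen.

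The libraries held 17218884, 18337471 and 17847190 counts in control, DDX24-sh1 and DDX24-sh2. DDX24 had 2010, 637 and 765 counts, 29.6% and 36.0% of control after scaling. Mitochondrially encoded genes took 4.36%, 5.13% and 7.04% of all counts. The names of the shRNA libraries differed between the deposited counts and FPKM: the product of FPKM and gene length was proportional to the count over nearly all genes only when the shRNA labels were exchanged, and as labelled it was so, within 1%, for 5.23% and 5.17% of genes. It could not be told which set of labels is right, so each shRNA name below stands for the library whose counts carry it. The epithelial markers KRT7, KRT8 and KRT18 and the A549 genes ALDH1A1, AKR1B10 and AKR1C1 each had over 20 CPM in all libraries, and PTPRC and CD3E, markers of blood cells, were at 0. Of the alveolar markers, NKX2-1, SFTPA1 and SFTPA2 were at 0, SFTPB had 0, 2 and 3 counts, SFTPC 3, 4 and 4, and NAPSA 23, 28 and 36. Of the 8 markers of other cell types, only COL1A1 (139, 174 and 143 counts) had more than 12 counts. The epithelial genes KRT19 and CDH1 differed from the control (log2 ratios of 1.07 and 1.36, and of -0.68 and -1.12), and EPCAM had 32, 29 and 29 counts.

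Across complexes I to IV the nuclear subunits stayed close to the control, slightly above it in each shRNA library, and no complex stood far from the others. The members summed to 78162 counts in the control, 89322 in DDX24-sh1 and 84969 in DDX24-sh2, which is 0.454%, 0.487% and 0.476% of each library. Summed over members, DDX24-sh1 was 0.09 (0.08 to 0.11) above the control on the log2 scale and DDX24-sh2 was 0.04 (0.03 to 0.05) above it, the interval of each standing in parentheses here and below. Of the 69 members, 61 had a mean of at least 1 CPM, the level required of the 13984 genes compared. The 8 below it were NDUFA7, COX4I2, COX6A2, COX6B2, COX7A1, COX7B2, COX8C and NDUFC2-KCTD14. Over the 61 members the median log2 ratios of DDX24-sh1 and DDX24-sh2 were 0.12 and 0.06, against -0.02 and -0.03 over all genes compared. Ratios above 0 were found for 46 of the 61 members in DDX24-sh1 (75.4%; 47.4% of all genes) and for 41 in DDX24-sh2 (67.2%; 47.0% of all genes). Scaled by total counts without mitochondrial genes, 48 members were above 0 in each. The medians over all genes moved as well under that scaling, to -0.0007 and 0.04. In a culture measured in bulk, fewer cells expressing a gene and less of its RNA per cell cannot be told apart.

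Few members passed 1.5-fold. In DDX24-sh1, 1 of 61 was at least 1.5-fold higher, where 7.59% of all genes were, and 2 were at least 1.5-fold lower, where 8.25% were. In DDX24-sh2 the numbers were again 1 and 2, against 8.6% and 9.51% of all genes. NDUFV2 was the gene higher and NDUFA13 and NDUFA4L2 were the genes lower in each library, and each had fewer than 50 counts in every library. Each was below 1 CPM in at least 1 library, so the filter on the mean was met through the libraries where it was high. In control, DDX24-sh1 and DDX24-sh2, NDUFV2 had 0.644, 1.42 and 1.27 CPM. NDUFA13 had 2.05, 0.984 and 0.997 CPM, and NDUFA4L2 had 2.64, 1.04 and 0.831. The comparisons share the control library, so they are not independent of one another. Smaller differences could be resolved, because most members were deeply counted. In DDX24-sh1 the counting interval lay above 0 for 27 members (44.3%; 23.6% of all genes) and below 0 for 5 (8.20%; 29.5% of all genes). In DDX24-sh2 it lay above 0 for 18 (29.5%; 23.6% of all genes) and below 0 for 13 (21.3%; 30.8% of all genes). These numbers hold for TMM scaling and were not taken under the other scalings. Some upper limits in DDX24-sh2 lay only just below 0, such as -0.01 for NDUFS8 and -0.02 for COX5B.

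The ratios of the members were also narrowly spread. On the log2 scale their interquartile ranges were 0.20 and 0.18, in the order DDX24-sh1 and DDX24-sh2, against 0.47 and 0.48 over all genes. Low counts widen such a range, so it was taken again over genes of 20 CPM or more on average. There the range was 0.19 and 0.16 for 52 members and 0.38 and 0.38 for 7749 genes. The plot of the cumulative shares shows the members as the steeper curve in each library, shifted slightly to the right.

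**Figure D1:**
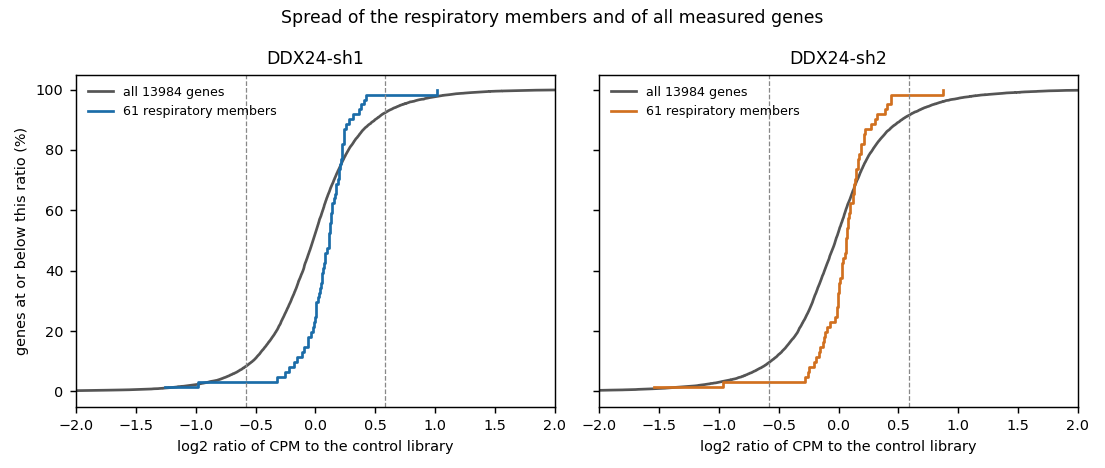
Cumulative share of genes (y axis, %) by log2 ratio to the control library (x axis) in DDX24-sh1 (left) and DDX24-sh2 (right), for all 13984 genes compared (grey) and for the 61 respiratory members (coloured); dashed lines mark 1.5-fold. The members' curves are steeper, with medians of 0.12 and 0.06, and 3 members lie outside the dashed lines in each library.

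By complex, the medians in DDX24-sh1 were 0.12 for complex I, 0.08 for complex II, 0.12 for complex III and 0.12 for complex IV. In DDX24-sh2 they were 0.07, 0.01, 0.08 and 0.06. Summed counts gave the same picture. Complex I had 29709, 34264 and 32422 counts in control, DDX24-sh1 and DDX24-sh2, with log2 ratios of 0.11 (0.08 to 0.13) and 0.05 (0.02 to 0.07). Complex II had 6372, 7124 and 6771 counts, with 0.06 (0.01 to 0.11) and 0.01 (-0.04 to 0.06), so that its DDX24-sh2 value was within counting error of the control. The remaining complexes lay between or just above these. Complex III had 17011, 19156 and 18496 counts, with 0.07 (0.04 to 0.10) and 0.04 (0.01 to 0.07). Complex IV had 23102, 26968 and 25543 counts, with 0.12 (0.10 to 0.15) and 0.06 (0.04 to 0.09). These sums depend on the scaling, since the mitochondrial counts differed between libraries: scaled by total counts without mitochondrial genes, the sum over all members was 0.11 in each shRNA library, and that of complex II in DDX24-sh2 was 0.08, above the control by more than counting error.

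**Figure D2:**
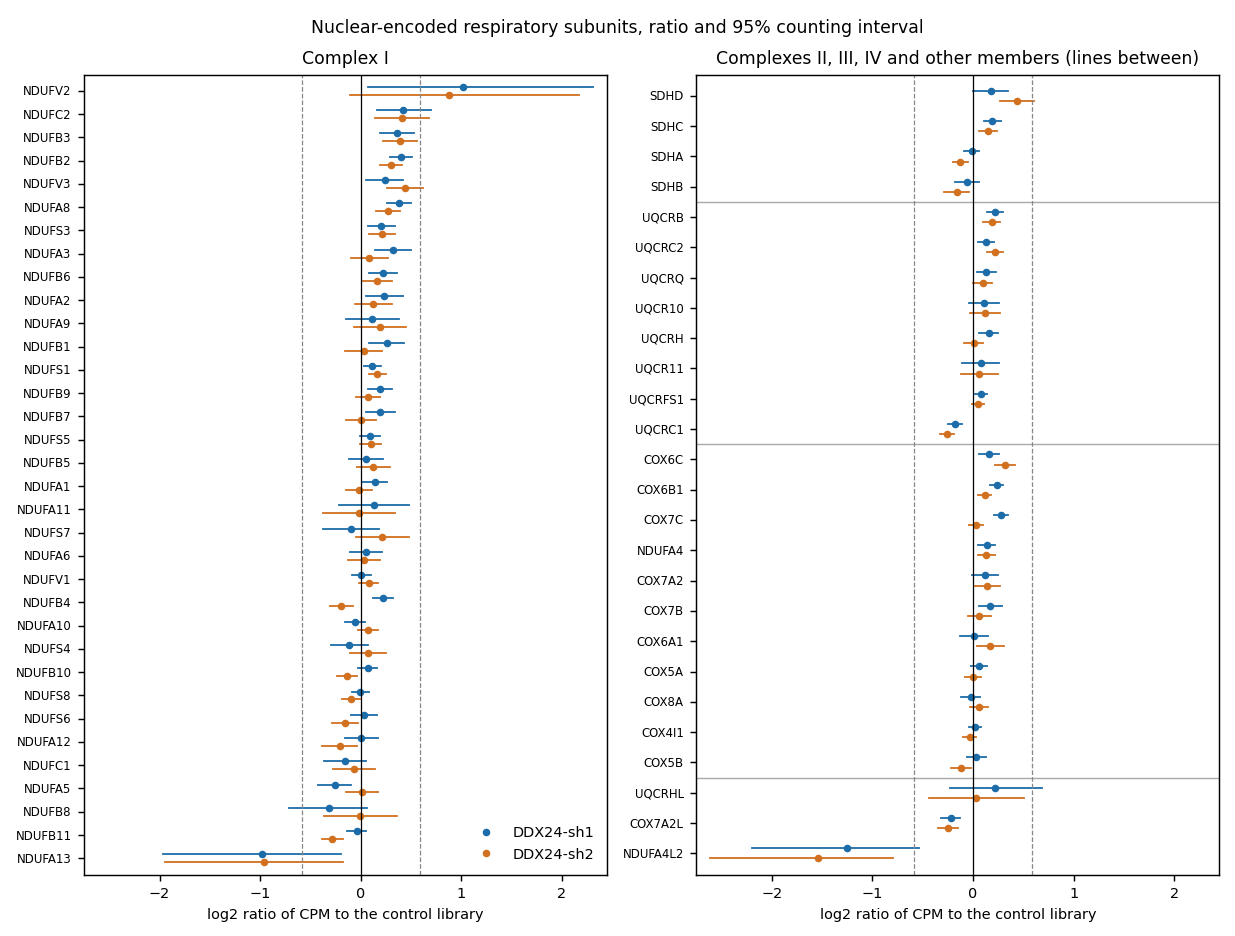
Log2 ratio to the control library (x axis) of the members reported by name with a mean of at least 1 CPM in DDX24-sh1 (blue) and DDX24-sh2 (orange), by complex and sorted by the mean of both ratios; horizontal bars are 95% counting intervals, dashed lines mark 1.5-fold, and grey lines on the right separate complexes II, III, IV and the other members. Most points lie near 0, and NDUFV2, NDUFA13 and NDUFA4L2 lie outside the dashed lines with wide intervals.

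The core of complex I that nuclear genes encode consists of an electron input module and a quinone-side module. In the input module NDUFS1, the largest iron-sulfur subunit, had 2159, 2506 and 2558 counts in control, DDX24-sh1 and DDX24-sh2, with log2 ratios of 0.12 (0.03 to 0.20) and 0.16 (0.08 to 0.25). NDUFV1, which binds the flavin and NADH, had 1825, 1964 and 2039 counts and ratios of 0.01 (-0.09 to 0.10) and 0.08 (-0.01 to 0.17). NDUFV2, its iron-sulfur partner, was counted at only 11, 26 and 23, with ratios of 1.02 (0.07 to 2.31) and 0.87 (-0.11 to 2.17). NDUFS1 was thus above the control in each shRNA library, NDUFV1 was within counting error of it, and the large ratio of NDUFV2 rested on few counts.

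In the quinone-side module, NDUFS7 lies near the quinone site, and NDUFS3 and NDUFS8 connect the site to the input module. NDUFS3 had 842, 1041 and 1031 counts and ratios of 0.21 (0.07 to 0.34) and 0.21 (0.08 to 0.34). The intervals of NDUFS3 thus lay above 0 in each library, while those of NDUFS7 and NDUFS8 did not. NDUFS7 had 216, 216 and 265 counts and ratios of -0.10 (-0.38 to 0.18) and 0.21 (-0.05 to 0.48). NDUFS8 had 2232, 2388 and 2209 counts and ratios of -0.0024 (-0.09 to 0.08) and -0.10 (-0.18 to -0.01). The coding bases of NDUFS7 are shared to 48.4% with annotated antisense genes on the opposite strand, and whether strand was used in counting is not given in the sources used here.

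The accessory subunits of complex I varied most within their own series. Of the 12 NDUFA genes placed in complex I, 11 were measured, with median ratios of 0.12 and 0.03. Of the 13 NDUFB and NDUFC genes the medians were 0.19 and 0.03, and their summed counts gave 0.16 (0.13 to 0.20) in DDX24-sh1 and 0.01 (-0.03 to 0.05) in DDX24-sh2. That sum was lower in DDX24-sh2 than in DDX24-sh1 by more than counting error, with a log2 ratio of -0.16 (-0.19 to -0.12). The 4 accessory NDUFS and NDUFV genes had medians of 0.06 and 0.09.

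Among the NDUFB and NDUFC genes the 2 shRNA libraries parted most at NDUFB4, a membrane-arm subunit named here after its values were seen. It had 1396, 1745 and 1293 counts, so its ratio was 0.22 (0.12 to 0.32) in DDX24-sh1 and -0.19 (-0.30 to -0.08) in DDX24-sh2. It was the only member with intervals on opposite sides of 0. NDUFB11, a membrane-arm subunit encoded on the X chromosome, had 1673, 1743 and 1456 counts, with ratios of -0.04 (-0.14 to 0.06) and -0.28 (-0.38 to -0.18). RBM10, on the opposite strand with 886, 1040 and 1103 counts, shares 44.85% of its exon bases, and the strand setting of the counting is not known. NDUFA13, also known as GRIM-19, had 35, 18 and 18 counts, with ratios of -0.98 (-1.97 to -0.20) and -0.96 (-1.95 to -0.18). The shRNA libraries gave NDUFA13 the same count, below the control in each case. NDUFA7 had 4, 9 and 6 counts, too few for a ratio to be read.

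Other accessory subunits were higher in each shRNA library, with intervals above 0, and are named here after their values were seen. NDUFA8, which sits on the intermembrane-space side, had 1007, 1404 and 1283 counts and ratios of 0.38 and 0.27. NDUFB2 had 1137, 1611 and 1481 counts and ratios of 0.40 and 0.30. Genes on the opposite strand share 45.2% of its coding bases, among them BRAF with 463, 375 and 377 counts. NDUFB3 had 491, 676 and 681 counts and ratios of 0.36 and 0.39. Each shRNA library thus held 120% to 132% of the control level of these genes, below the 1.5-fold limit. NDUFC2, which shares 76.9% of its coding bases with the read-through gene NDUFC2-KCTD14 (0 counts in each library), had 195, 281 and 274 counts and ratios of 0.42 and 0.41, and NDUFV3 had 444, 561 and 637 counts and ratios of 0.24 and 0.44.

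Complex II oxidises succinate, and its catalytic and anchoring subunits lay apart. The catalytic subunits were at or below the control. SDHA, the flavoprotein, had 2852, 3033 and 2765 counts in control, DDX24-sh1 and DDX24-sh2, with log2 ratios of -0.01 (-0.09 to 0.06) and -0.13 (-0.20 to -0.05). SDHB, the iron-sulfur protein, had 1076, 1107 and 1016 counts, with -0.06 (-0.18 to 0.06) and -0.16 (-0.29 to -0.04). Both catalytic subunits were below 0 in DDX24-sh2 by more than counting error and within it in DDX24-sh1. Scaled by total counts without mitochondrial genes, however, their DDX24-sh2 ratios were -0.06 and -0.09, both within counting error, and the FPKM as labelled gave 0.0020 for SDHA. The membrane anchors, which hold the complex in the inner membrane, were above the control. SDHC had 1963, 2402 and 2301 counts, with 0.19 (0.10 to 0.28) and 0.15 (0.06 to 0.24). SDHD had 481, 582 and 689 counts, with 0.17 (-0.0016 to 0.35) and 0.44 (0.27 to 0.61). It shares 47.7% of its coding bases with another annotated gene on its own strand, AP002884.3, which had 0 counts in each library. Summed, the catalytic pair gave -0.02 (-0.09 to 0.04) and -0.14 (-0.20 to -0.07), and the anchors gave 0.19 (0.11 to 0.27) and 0.21 (0.13 to 0.29), so the intervals of the catalytic and anchor sums did not overlap in either library. Annotated pseudogenes of SDHA held 205, 184 and 301 counts, and adding these to the gene kept its ratios within the intervals above.

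SDHD is transcribed head to head with TIMM8B, a small import chaperone of the intermembrane space, and the annotated genes overlap by 26 bases on opposite strands. TIMM8B had 400, 219 and 242 counts, with log2 ratios of -0.96 (-1.21 to -0.73) and -0.80 (-1.04 to -0.57). Across this shared start the counts of SDHD were higher and those of TIMM8B lower in each shRNA library. TIMM8B was chosen here as the neighbour of SDHD after its values were seen.

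In complex III, 7 of 8 subunits were above the control in each shRNA library and UQCRC1 was below it. The Rieske iron-sulfur protein UQCRFS1, which carries electrons to cytochrome c1, was the most counted member, with 4383, 4977 and 4800 counts and ratios of 0.08 (0.02 to 0.14) and 0.05 (-0.01 to 0.11). UQCRC1 and UQCRC2 are the large core proteins on the matrix side and occur together in the complex. UQCRC1 had 3478, 3291 and 3074 counts, with ratios of -0.18 (-0.25 to -0.11) and -0.26 (-0.33 to -0.19). UQCRC2 had 2351, 2748 and 2890 counts, with 0.13 (0.05 to 0.21) and 0.22 (0.14 to 0.30). The core proteins thus lay on opposite sides of the control in each library, beyond counting error each time. UQCRB, a small subunit near the quinone site, had 2196, 2734 and 2641 counts and ratios of 0.22 (0.13 to 0.30) and 0.19 (0.10 to 0.27). The 5 small accessory subunits ranged between 0.08 and 0.22 in DDX24-sh1, and between 0.01 and 0.19 in DDX24-sh2.

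The hinge protein UQCRH has a near copy, UQCRHL, on another part of chromosome 1. UQCRH had 1674, 2000 and 1779 counts and UQCRHL 75, 94 and 81, in control, DDX24-sh1 and DDX24-sh2. Their coding sequences are shown because reads from one can be counted on the other. Both have 273 bases and are 98.5% identical, and capitals mark the 4 bases that differ, G158A, G167A, G231A and G233A, given as the UQCRH base, the position counted from the first coding base and the UQCRHL base. The sequences come from GRCh38 with the GENCODE 29 annotation, UQCRH from the plus strand between chr1:46303767-46316581 with introns removed, and UQCRHL from the minus strand at chr1:15807377-15807649.
UQCRH: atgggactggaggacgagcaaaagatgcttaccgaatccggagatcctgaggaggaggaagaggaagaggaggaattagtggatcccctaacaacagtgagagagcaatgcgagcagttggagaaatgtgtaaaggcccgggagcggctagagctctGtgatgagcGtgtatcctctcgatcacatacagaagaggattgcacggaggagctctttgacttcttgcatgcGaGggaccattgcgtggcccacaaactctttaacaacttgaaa
UQCRHL: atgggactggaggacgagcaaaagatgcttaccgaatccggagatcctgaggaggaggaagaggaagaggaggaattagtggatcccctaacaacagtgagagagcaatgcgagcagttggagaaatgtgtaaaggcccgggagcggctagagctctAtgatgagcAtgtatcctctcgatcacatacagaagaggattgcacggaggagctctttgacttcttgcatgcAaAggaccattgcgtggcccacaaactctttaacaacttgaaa
The ratios of UQCRHL, 0.22 (-0.23 to 0.68) and 0.03 (-0.44 to 0.50), were within counting error of the control and of those of UQCRH, 0.16 (0.06 to 0.25) and 0.01 (-0.09 to 0.10). How reads matching both genes were assigned is not given in the sources used here.

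Complex IV had no member past 1.5-fold among its 11 subunits, and its ratios lay between -0.02 and 0.28 in DDX24-sh1, and between -0.12 and 0.32 in DDX24-sh2. COX4I1, the regulatory subunit that binds ATP, had 4144, 4506 and 4284 counts and ratios of 0.02 (-0.04 to 0.08) and -0.03 (-0.09 to 0.03). COX5B had 1641, 1801 and 1600 counts and ratios of 0.03 (-0.06 to 0.13) and -0.12 (-0.22 to -0.02), the only complex IV subunit whose interval lay below 0. COX6C had 1462, 1753 and 1931 counts and ratios of 0.16 (0.06 to 0.26) and 0.32 (0.22 to 0.42). COX6C and COX6B1 were the subunits highest above the control by the mean of both ratios. COX6B1, which joins the dimer on the intermembrane-space side, had 3637, 4592 and 4172 counts and ratios of 0.24 (0.17 to 0.30) and 0.12 (0.05 to 0.18). COX7B had 1117, 1348 and 1235 counts and ratios of 0.17 (0.06 to 0.29) and 0.06 (-0.05 to 0.18). NDUFA4 had 2214, 2606 and 2568 counts and nearly equal ratios of 0.14 (0.05 to 0.22) and 0.13 (0.05 to 0.22). The remaining named subunits were near the control: COX6A1 at 0.01 and 0.17, COX7A2 at 0.12 and 0.14, and COX8A at -0.02 and 0.06.

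The paired isoforms showed A549 cells to express the ubiquitous form of each subunit and little of the other. Levels of different genes are compared as CPM, taken from total counts, per kb of gene length. COX6B1 had the highest level of all members, 226 in the control, 267 in DDX24-sh1 and 250 in DDX24-sh2, against 0.228, 0.143 and 0.162 for the testis form COX6B2, all of whose coding bases another annotated gene shares. COX7A2 had 28.5, 31.2 and 32.1, against 0.404, 0.488 and 0.278 for the muscle form COX7A1, which had 7, 9 and 5 counts. The other restricted forms were at or near 0. COX4I2, the lung and low-oxygen form, COX6A2 and COX7B2 had 0 counts in each library, and COX8C had 0, 0 and 2. A count of 0 allows up to 3 counts, so low expression of these genes was not detectable at this depth.

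NDUFA4L2, the paralog of NDUFA4 known as a target of hypoxia-inducible factor, was the member with the largest difference from control. It had 45 counts in the control, 19 in DDX24-sh1 and 15 in DDX24-sh2, with log2 ratios of -1.26 (-2.20 to -0.54) and -1.54 (-2.62 to -0.80). The shRNA libraries held 41.9% and 34.3% of the control level, and they did not differ from one another beyond counting error, with an interval of -1.40 to 0.73. On the scale of level per kb, NDUFA4L2 had 0.931, 0.369 and 0.300, while NDUFA4 had 36.2, 40.0 and 40.5.

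**Figure D3:**
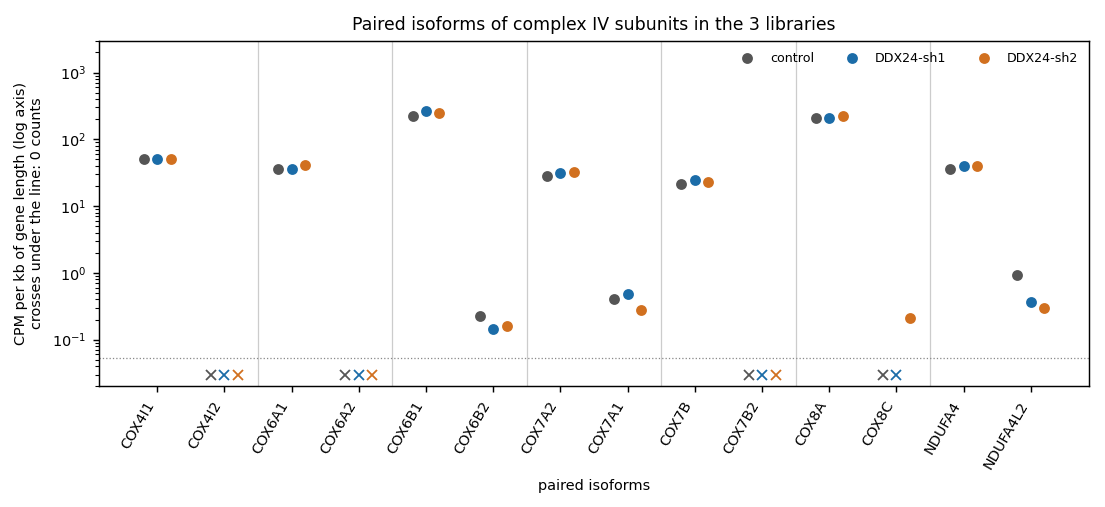
Level per gene length (y axis, CPM per kb, log axis) of 7 ubiquitous subunits of complex IV, each beside its restricted isoform (x axis), in the control (grey), DDX24-sh1 (blue) and DDX24-sh2 (orange) libraries; crosses under the dotted line mark 0 counts. Each ubiquitous form is far above its partner, and the control point of NDUFA4L2, 0.931, lies above its shRNA points of 0.369 and 0.300.

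COX7A2L, which helps to join complexes III and IV, was the most counted member outside the complexes. It had 1826, 1678 and 1623 counts and ratios of -0.22 (-0.32 to -0.13) and -0.25 (-0.35 to -0.15), so it was lower in each shRNA library. The interval of the difference between the shRNA libraries ran from -0.13 to 0.07.

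The lowest levels within complex I belonged to genes that overlap other annotated genes. The median level in the control was 15.1 CPM per kb for complex I, 14.8 for complex II, 52.6 for complex III and 50.2 for complex IV. NDUFV2 stood at 0.236, NDUFA7 at 0.164 and NDUFA13 at 0.751, although NDUFV2 forms part of the same core as NDUFV1 (21.0) and NDUFS1 (10.2). Each of these 3 shares coding bases with another annotated gene on its own strand: NDUFV2 shares 84.7% with AP005263.1, NDUFA7 78.3% with AC010323.1 and NDUFA13 55.2% with AC011448.1. These partners had almost no counts: 0 in each library for AP005263.1, 0, 0 and 1 for AC010323.1, and 1, 1 and 4 for AC011448.1. Over all 59 subunits, 9 shared at least 50% of their coding bases in this way, with control levels from 0.164 to 208 and a median of 3.63. The 48 that shared none had levels from 1.67 to 226 and a median of 26.3. Of those sharing at least 50%, NDUFB8, NDUFC2, UQCR11 (100% shared, level 12.7), COX6A1 (53.5%, level 35.6) and COX8A (55.1%, level 208) lay within that range, and NDUFA7, NDUFV2, NDUFA13 and NDUFA9 below it. The part of this overlap in the low counts, and in the ratios of NDUFV2 and NDUFA13, was not tested. Without the members that share at least 50%, 0 were 1.5-fold higher in either shRNA library and 1, NDUFA4L2, was 1.5-fold lower in each.

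**Figure D4:**
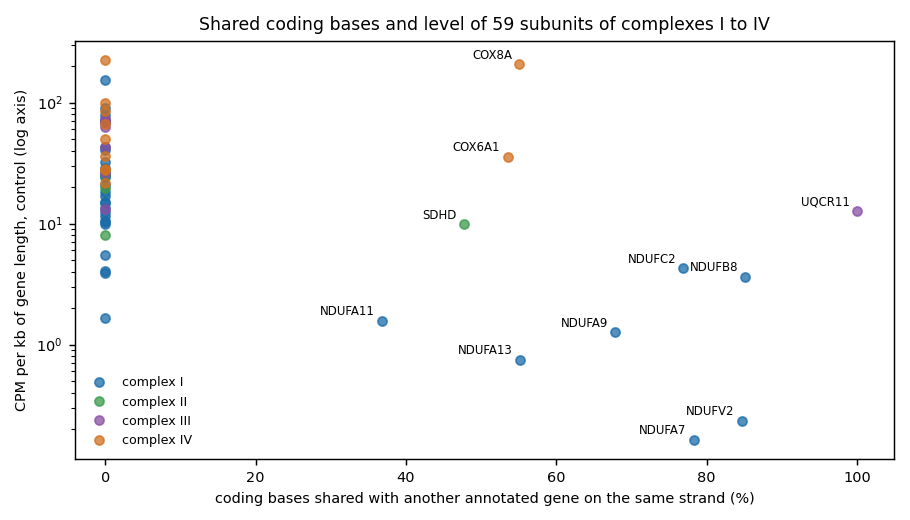
Level in the control library (y axis, CPM per kb, log axis) against the share of a gene's coding bases that another annotated gene on the same strand also covers (x axis, %), for 59 subunits coloured by complex, with names where the share is above 0. NDUFA7, NDUFV2 and NDUFA13 are the lowest points and all share over 50%, while UQCR11, at 100%, COX6A1 and COX8A lie within the range of subunits that share none.

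Reads can also be shared with processed pseudogenes, which are common for small subunits. The files list 114 pseudogenes whose names match the families, with 593, 568 and 606 counts in all against 78162, 89322 and 84969 on the members. Adding these left the summed ratio of every complex within its counting interval.

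Summed by complex, the subunits encoded by mitochondrial DNA had higher ratios than the nuclear ones, most of all in DDX24-sh2. The 7 mitochondrial subunits of complex I had summed log2 ratios of 0.17 (0.16 to 0.18) in DDX24-sh1 and 0.74 (0.73 to 0.75) in DDX24-sh2, the 3 of complex IV had 0.29 (0.29 to 0.30) and 0.78 (0.77 to 0.79), and MT-CYB of complex III had 0.12 (0.10 to 0.14) and 0.36 (0.34 to 0.38). As a result, mitochondrial counts per nuclear count went from 5.57 in the control to 5.83 and 9.0 for complex I, from 2.41 to 2.49 and 3.0 for complex III, and from 14.5 to 16.3 and 23.8 for complex IV. Single genes did not all follow the sums: in DDX24-sh1 MT-ND4L (0.0012), MT-ND2 (0.02) and MT-ND4 (0.06) lay below the nuclear sum of complex I (0.11). In complexes I, III and IV the intervals of the nuclear and mitochondrial sums did not overlap in either shRNA library. For complex III in DDX24-sh1 they nearly met, the nuclear sum ending at 0.101 and MT-CYB beginning at 0.103. MT-CYB is 1 gene, and its ratio there, 0.123, was near the median of the 8 nuclear subunits, 0.117. Of the 11 mitochondrial subunits, 1 was at least 1.5-fold higher in DDX24-sh1 (9.09%; 7.59% of all genes) and 9 in DDX24-sh2 (81.8%; 8.6% of all genes).

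**Figure D5:**
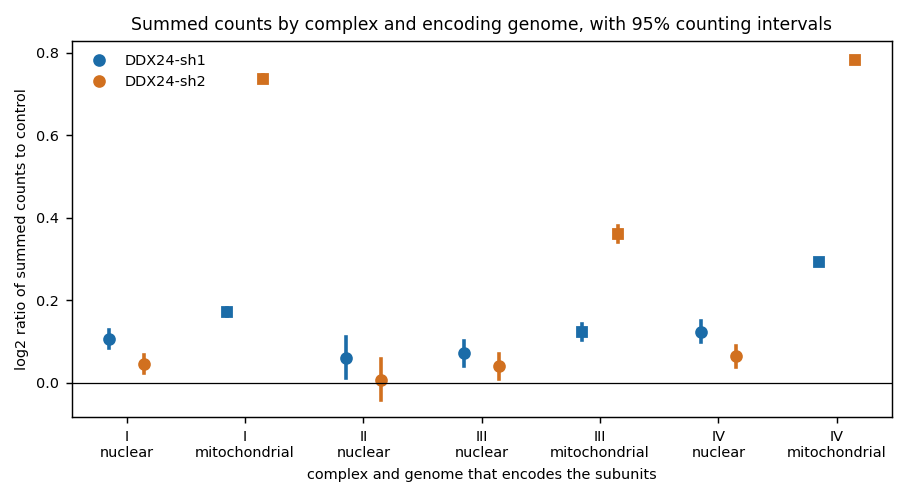
Log2 ratio of summed counts to the control library (y axis) for the nuclear (circles) and mitochondrial (squares) subunits of each complex (x axis), in DDX24-sh1 (blue) and DDX24-sh2 (orange); bars are 95% counting intervals, some shorter than the symbols. The nuclear sums lie between 0.01 and 0.12, and the mitochondrial sums of complexes I and IV in DDX24-sh2 reach 0.74 and 0.78.

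Set against one another, the shRNA libraries differed little at the nuclear subunits. With DDX24-sh1 as the reference, the median log2 ratio over the 61 members was -0.04, and -0.05, -0.07, -0.03 and -0.05 for complexes I, II, III and IV. No member was 1.5-fold higher or lower, where 5.33% and 4.84% of all genes were. The counting interval lay above 0 for 9 members (14.8%; 21.0% of all genes), among them SDHD, COX6A1, COX6C and UQCRC2, and below 0 for 18 (29.5%; 23.8% of all genes), among them NDUFB4, NDUFB11, COX7C and UQCRH. NDUFB4 showed the largest difference, -0.41 (-0.52 to -0.31). SDHD was higher in DDX24-sh2, by 0.26 (0.10 to 0.42).

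The promoters of the members were searched for 3 motifs, which the rule did not use. RefSeq promoter windows on GRCh38.p14, from 250 bases before to 50 after the start, were found for 56 of the 69 members and searched on both strands. The core site of nuclear respiratory factor 1, GCATGCGC, was in 9 (16.1%), against 4.31% of 14896 protein-coding genes. The ETS motif CCGGAAG, bound by GABP, was in 15 (26.8%), against 14.4%, and the YY1 motif AAGATGGC was in 8 (14.3%), against 3.99%. At least 1 of these was in 25 members (44.6%), against 20.6% of protein-coding genes and 15.6% of all 27305 windows. Upstream sequences are shown for members holding the NRF1 core and at least 1 of the other motifs, as far as no annotated exon covers them. NDUFA6 and NDUFS7 also hold the core and the YY1 motif, but exons cover their upstream bases, so they are not shown. In COX6A1, SDHB and SDHD the other motifs lie outside the stretches shown. For SDHD a window of 30 bases at its start shared with TIMM8B is shown instead. All sequences run in the direction of transcription, with motif matches in capitals. They lie at chr2:97645812-97646039 (plus strand) for COX5B, chr12:120437863-120438089 (plus) for COX6A1, chr1:17054171-17054282 (minus) for SDHB and chr11:112086761-112086790 (plus) for SDHD.
COX5B: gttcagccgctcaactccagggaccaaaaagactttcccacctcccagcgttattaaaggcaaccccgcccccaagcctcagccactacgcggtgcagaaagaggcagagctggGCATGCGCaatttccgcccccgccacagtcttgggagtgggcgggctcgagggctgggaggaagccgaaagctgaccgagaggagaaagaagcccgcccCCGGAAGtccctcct
COX6A1: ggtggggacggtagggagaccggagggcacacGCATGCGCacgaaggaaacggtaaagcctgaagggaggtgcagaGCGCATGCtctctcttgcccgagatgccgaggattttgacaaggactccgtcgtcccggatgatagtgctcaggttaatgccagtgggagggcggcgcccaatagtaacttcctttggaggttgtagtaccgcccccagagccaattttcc
SDHB: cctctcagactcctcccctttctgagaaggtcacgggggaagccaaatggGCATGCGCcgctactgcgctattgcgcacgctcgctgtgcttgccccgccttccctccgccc
SDHD: ttGCGCATGCGCgacgggtgtgcaccgcct
In SDHD the capitals hold the core on both strands, overlapping, and in COX6A1 they hold 1 core on each strand. A match describes letters and is no evidence of binding. The 9 members with the NRF1 core had median log2 ratios of 0.03 and 0.03 in DDX24-sh1 and DDX24-sh2, and the 41 measured members without it had 0.12 and 0.06. Members with at least 1 of the 3 motifs (24 measured) had 0.10 and 0.06, and those with none (26) had 0.10 and 0.04. The 7 measured members with the YY1 motif had -0.06 and 0.07, and the 43 without it had 0.12 and 0.05. For the ETS motif the medians were 0.12 and 0.06 with it (15) and 0.08 and 0.05 without it (35). Those with the core spanned -0.10 to 0.38 in DDX24-sh1, and in DDX24-sh2 they spanned -0.19 to 0.44, with SDHB at -0.06 and -0.16 and SDHD at 0.17 and 0.44.

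Transcription factors known to bind these motifs were measured as well. NRF1 had 337, 243 and 299 counts, with log2 ratios of -0.57 (-0.82 to -0.33) and -0.25 (-0.48 to -0.02). GABPB1, a subunit of GABP, had 418, 280 and 352 counts, with -0.67 (-0.90 to -0.46) and -0.33 (-0.54 to -0.12). NRF1 and GABPB1 were below the control in each shRNA library by more than counting error, as was the more abundant YY1. YY1 had 2860, 2607 and 2675 counts, with -0.23 (-0.31 to -0.16) and -0.18 (-0.25 to -0.10). GABPA, the DNA-binding subunit of GABP, was within counting error of the control, at 375, 396 and 399 counts with -0.02 (-0.23 to 0.19) and 0.01 (-0.20 to 0.22). Of the 20 listed regulators of respiratory genes and mitochondrial transcription, 19 were measured, with medians of -0.12 and -0.02. Past 1.5-fold were 1 in DDX24-sh1, GABPB1, which was lower (5.26%; 8.25% of all genes), and 0 in DDX24-sh2. PPARGC1A, the coactivator of mitochondrial biogenesis, had 5, 2 and 0 counts.

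The genes that assemble the complexes had medians nearer to 0 or below it. The 17 complex I assembly factors had medians of -0.09 and 0.02. In DDX24-sh1 0 were past 1.5-fold, where 7.59% of all genes were higher and 8.25% lower. In DDX24-sh2 1, ECSIT, was lower (5.88%; 9.51% of all genes). ECSIT had 619, 487 and 426 counts, with log2 ratios of -0.44 (-0.62 to -0.27) and -0.62 (-0.80 to -0.44). Of 33 assembly factor rows for complexes II to IV, 30 were measured, with medians of 0.05 and -0.02. Again 0 were past 1.5-fold in DDX24-sh1. In DDX24-sh2 1, COX20 with 17, 27 and 11 counts, was lower (3.33%; 9.51% of all genes). SDHAF1, which helps insert iron-sulfur clusters into SDHB, had 644, 522 and 479 counts, with -0.40 (-0.57 to -0.23) and -0.51 (-0.68 to -0.33).

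The ATP synthase, citric acid cycle and import genes had medians from -0.01 to 0.15. The 18 nuclear ATP synthase genes had medians of 0.15 and 0.15. Of these 1, ATP5ME, was at least 1.5-fold higher in each library (5.56%; 7.59% and 8.6% of all genes). ATP5ME had 134, 246 and 246 counts and ratios of 0.77 and 0.79, and it overlaps MYL5 on the opposite strand. The 14 citric acid cycle enzymes had 0.15 and 0.12. Past 1.5-fold were OGDH in DDX24-sh1 (0.71) and IDH3A in DDX24-sh2 (0.65), 7.14% each time, against the same shares of all genes. Of the 24 import genes, 23 were measured, with -0.01 and 0.01. In DDX24-sh1 3 were at least 1.5-fold lower (13.0%; 8.25% of all genes). In DDX24-sh2 2 were lower (8.70%; 9.51% of all genes) and 3 higher (13.0%; 8.6% of all genes). TIMM8B and TIMM9 were lower in each. The 4 nuclear chain genes outside the rule had medians of 0.25 and 0.20. Of these, CYCS had 2676, 3244 and 4029 counts, with 0.18 (0.10 to 0.25) and 0.51 (0.44 to 0.58), whereas CYC1 had 4427, 4295 and 4430 counts, with -0.14 (-0.20 to -0.08) and -0.08 (-0.14 to -0.02). NDUFAB1 had 932, 1242 and 1172 counts, with 0.31 and 0.25, and C15orf48, the alternative to NDUFA4 in complex IV, had 201, 330 and 236, with 0.61 (0.36 to 0.88) and 0.15 (-0.13 to 0.43).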

How the data were processed

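For each of 3 libraries the authors deposited raw counts on 58735 genes, all whole numbers, and FPKM values made from these counts. The submitters' processing notes name TopHat2 2.0.9, Bowtie2 2.0.6, Cufflinks 2.1.1 and Cuffdiff 2.1.1, and the counter, its strand setting and the genome build are not given in the sources used here. Gene identifiers, starts and ends of all 58735 genes equal those of GENCODE 29 on GRCh38, from which overlaps and coding sequences were taken. Columns were assigned by the sample labels, and all main values come from counts, because the FPKM labels of the shRNA libraries fitted the counts only when exchanged.

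Counts were scaled by TMM with edgeR 4.0.16 in R 4.3.3, and log2 CPM used a prior count of 2. Genes needed a mean of at least 1 CPM. With 1 library per condition, neither a count model nor a p-value was used. Intervals are exact conditional binomial (Clopper-Pearson) 95% intervals of a ratio of 2 counts. At these depths a gene with 11 control counts (NDUFV2) had an interval from 0.07 to 2.31 in DDX24-sh1, and one with 4383 (UQCRFS1) from 0.02 to 0.14. Steps were tested on simulated data. Complexes and lists were compared by medians, counts and sums beside all genes, without set tests.

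The members and lists were chosen with earlier results of these data known. Members named with values were every core, catalytic, Rieske and anchor subunit, members past 1.5-fold in both shRNA libraries, the 2 highest and 2 lowest of each complex, paired isoforms, COX7A2L, read-throughs and copies. Other names were chosen after their values were seen. A result covered by this rule is not reported here. Alternatives were DESeq2 1.42.0 size factors, total counts with and without mitochondrial genes, FPKM as log2(FPKM + 0.1) under either labelling, a prior count of 0.5, other filters and folds, protein-coding genes as background, NDUFA4 in complex I, isoforms counted with their complex, and pseudogenes added. Those added after seeing the data left out members sharing at least 50% of coding bases, or the members outside the complexes. Python 3.11.15 with matplotlib 3.10.9 drew the figures.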

Additional observations from a re-analysis of the deposited data

Results flagged for a closer look

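NDUFB4, a membrane-arm subunit of complex I, had log2 ratios of opposite sign in the shRNA libraries, 0.22 in DDX24-sh1 and -0.19 in DDX24-sh2, with counting intervals on opposite sides of 0. It was singled out because these ratios lay on opposite sides of the control. The difference was not tested between conditions, since each has 1 library, and its own counting interval ran from -0.52 to -0.31.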

How the results depend on the processing

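No paired analysis was possible because each group has 1 library. The medians of all members and of each complex against the control were judged by a limit taken from single genes. It was the median reach, to either side, of the counting intervals of the genes in the set. Under every alternative run the medians moved by less than this limit, which is not a counting error of the median. The limit is wide: in DDX24-sh1 the interval of NDUFA1 ran from 0.01 to 0.27, against a median of 0.12 over the members. A move within it therefore does not show that a median was stable. At 2-fold, 1 and 0 members were higher in DDX24-sh1 and DDX24-sh2 and 1 was lower in each, and at the lowest fold limit tried 5 and 5 were higher. With no filter 2 were higher in each. With 10 CPM required, 0 were higher and 0 lower in each. Without members sharing coding bases, 0 were higher and 1 lower in each. The share over all genes was not taken at the other fold limits and filters, so the counts of members there have no background beside them. At 1.5-fold and a mean of at least 1 CPM, the background among protein-coding genes was 6.96% higher and 7.70% lower in DDX24-sh1, and 6.92% and 9.11% in DDX24-sh2.

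Scaled by total counts, the DDX24-sh2 sums were 0.069 for all members, 0.074 for complex I and 0.093 for complex IV, and the mitochondrial median was 0.76. Without mitochondrial genes in the total, the DDX24-sh2 sums were 0.11 for all members, 0.12, 0.077, 0.11 and 0.13 for complexes I, II, III and IV, the mitochondrial median was 0.80, and the DDX24-sh1 sum over all members was 0.11. With FPKM, which weights short genes more, and labels as given, the sums over all members were 0.050 in DDX24-sh1 and 0.12 in DDX24-sh2. They were 0.038 and 0.14 for complex I, 0.039 and 0.090 for complex III, 0.076 and 0.13 for complex IV, and 0.0090 for complex II in DDX24-sh1. The mitochondrial medians became 0.74 and 0.26, and the medians of DDX24-sh2 to DDX24-sh1 became 0.077 for complex II and 0.058 for complex IV. NDUFS8 (0.011), SDHA (0.0020) and COX5B (0.047) then lay above 0 in DDX24-sh2. With labels exchanged, the DDX24-sh1 sums were 0.12 for all members and 0.14 for complex I. DESeq2 size factors, a prior count of 0.5, added pseudogenes, NDUFA4 in complex I and isoforms in their complexes moved no listed result beyond its counting error. Medians were judged by the wide limit given above. Sums use no prior count, so that alternative was not run for them.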

Other observations

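Among members with few counts, NDUFV2P1, an annotated processed pseudogene of NDUFV2, had 15, 29 and 26 counts in control, DDX24-sh1 and DDX24-sh2, more than the 11, 26 and 23 of the gene itself. Pseudogenes of COX6A1 had 111, 99 and 69 counts beside 824, 887 and 982 on the gene, and those of UQCRFS1 had 223, 212 and 157 beside 4383, 4977 and 4800.

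MT-ND6 had the largest ratio of the mitochondrial chain subunits, with 3858, 7439 and 10564 counts and log2 ratios of 0.85 (0.79 to 0.90) and 1.37 (1.32 to 1.43), followed by MT-ND5, which neighbours it on the opposite strand, with 14976, 23586 and 36723 counts and 0.56 (0.53 to 0.59) and 1.21 (1.19 to 1.24).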
